A study of Mus musculus with 8 samples.

Results

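Retinoid metabolism in brown adipose tissue (BAT), the thermogenic fat of rodents, was followed through 9 genes centred on the retinaldehyde dehydrogenase Aldh1a1, out of 31053 genes in the count table. They were taken by symbol. They hold the Aldh1a family dehydrogenases Aldh1a1, Aldh1a3 and Aldh1a7, the retinol-binding proteins Rbp4 and Rbp7 and the retinol transporter Stra6. The others were the retinol saturase Retsat, the retinol dehydrogenase Rdh10 and the retinoic acid receptor Rara. BAT of 4 wild-type (WT) and 4 db/db mice was profiled by bulk RNA-seq. db/db mice lack a working leptin receptor (gene Lepr) and grow obese. All 8 libraries were labelled C57BL6/J and 8 weeks of age, and per the study's methods the mice were male, on a normal diet and fasted before tissue collection. The study's sources differ on whether the WT mice had the same supplier as the db/db mice, and a part of the supplier in the differences was not tested. The methods give the db/db strain as B6.BKS(D)-Leprdb/J and the WT strain as C57BL6/J. The genetic background may therefore differ with genotype, and its part in the differences was not tested. Per the study, replicates of a genotype were separate mice.

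Retinol circulates bound to Rbp4, enters cells with the help of receptors such as Stra6, and is either stored as retinyl ester or oxidised. Dehydrogenases such as Rdh10 convert retinol to retinaldehyde, Dhrs3 reduces it back, and Aldh1a enzymes such as Aldh1a1 oxidise retinaldehyde irreversibly to retinoic acid. Retinoic acid activates the nuclear receptors RAR and RXR, and Cyp26 enzymes break it down. In adipose tissue, retinaldehyde and retinoic acid are known to act on adipocyte differentiation and on thermogenic genes such as Ucp1.

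Library totals lay between 2374079 and 2615009 counts for WT and between 2382722 and 3240074 for db/db. The detection floor, set at 3 counts, was 0.9025 to 1.33 CPM. CPM are counts scaled to a common library size, here the total over the filtered genes times its TMM factor. Lepr had 0 counts in every library, which leaves the genotype unchecked on its own transcript. The labels name the stromal vascular fraction as the cell type, but transcripts of mature adipocytes were abundant in every library (Adipoq at 1245 to 2112 CPM and Plin1 at 388 to 954 CPM), and the label goes against them. Of all genes tested, 15.8% were higher and 11.9% lower in db/db, against which the following counts of cell type markers are to be read. Macrophage markers were higher in db/db in 8 of the 9 tested (summed level 157 to 213 CPM in WT and 734 to 1293 CPM in db/db), as were 8 of 8 fibroblast and progenitor markers (518 to 625 CPM and 972 to 2001 CPM) and 12 of 12 skeletal muscle markers (436 to 1559 CPM and 2301 to 11426 CPM), with no marker of these lists at 0 in all libraries. White adipocyte markers were higher in 4 of 5 tested (106 to 321 CPM and 1880 to 2895 CPM), mural markers were higher in 3 of 5 (190 to 234 CPM and 326 to 435 CPM), and endothelial markers were lower in 3 of 7 (388 to 442 CPM and 280 to 334 CPM). Among the markers called higher, 2 macrophage, 3 fibroblast and progenitor, 1 mural and 1 skeletal muscle marker had under 10 counts in at least 1 WT library (Dpp4 had 2 or 3 counts in each), so they passed the filter on low counts through db/db, where they are high. The part of these lists in the retinoid results was not tested beyond the muscle covariate given below. The library db/db 1 had the highest sums of macrophage, fibroblast and skeletal muscle markers and the lowest mitochondrially encoded share of counts in its genotype, 30.68% where the other 3 held 36.76% to 37.58%. In bulk tissue, fewer cells of a type and less RNA per cell cannot be told apart.

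Aldh1a1 and Aldh1a7 are neighbouring paralogs on chromosome 19 (mm10), at 20492715 to 20643465 on the plus strand and at 20692953 to 20727562 on the minus strand. The 250 bases before their start sites (RefSeq, GRCm38.p6) are shown because the paralogs are the members that rose and because their sequences are alike, with the longest run of bases that both share in capitals. For Aldh1a1 the start site is the downstream of those in RefSeq, and the counts of the gene do not separate it from the upstream one.
Aldh1a1, chr19:20601718-20601967, plus strand: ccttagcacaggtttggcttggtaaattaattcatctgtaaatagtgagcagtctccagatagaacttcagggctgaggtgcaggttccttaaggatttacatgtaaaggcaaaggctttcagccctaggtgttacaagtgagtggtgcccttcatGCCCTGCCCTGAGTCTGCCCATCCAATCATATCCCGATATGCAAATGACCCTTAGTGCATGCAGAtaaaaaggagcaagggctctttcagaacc
Aldh1a7, chr19:20727557-20727806, minus strand: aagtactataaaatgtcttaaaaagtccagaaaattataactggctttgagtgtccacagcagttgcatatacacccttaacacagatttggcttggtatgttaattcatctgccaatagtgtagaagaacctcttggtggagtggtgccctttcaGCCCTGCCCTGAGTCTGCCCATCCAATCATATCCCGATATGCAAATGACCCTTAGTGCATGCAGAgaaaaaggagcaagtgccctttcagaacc
The shared run was 65 bases long and lay 94 to 30 bases before both start sites, and the 250 bases were 65.3% identical in a global alignment. It holds CCAAT, found in 37.4% of all 32851 promoter windows of 300 bases, ATGCAAAT, found in 1.74%, and on the opposite strand the receptor half-site GGGTCA. Half-sites were searched on both strands as AGGTCA, in which the first base could also be G and the third base T, and at least 1 was present in 43.7% of all windows. ATGCAAAT and the half-site overlap by 1 base.

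A pair of half-sites in the same orientation with 5 bases between them form a DR5, the arrangement that RAR and RXR are known to bind. A DR5 was present in 0.0974% of all windows, in 0 of the 15 windows of the 7 members that had an entry (there was none for Aldh1a3 and Rdh10), and in those of 2 of 43 other retinoid pathway genes with an entry, Rarb and Cyp26a1. These are shown with the half-sites in capitals, since both genes are referred to again beside the values of the retinoic acid targets.
Rarb, chr14:16575498-16575544, minus strand: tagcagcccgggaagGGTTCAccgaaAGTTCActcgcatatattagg
Cyp26a1, chr19:37697761-37697807, minus strand: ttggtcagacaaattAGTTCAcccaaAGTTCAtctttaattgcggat
A match in these windows is a description of the letters, not a binding site, and the absence of one says nothing of sites elsewhere.

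Of the 9 genes, 6 passed the filter on low counts and entered the edgeR quasi-likelihood test with 9264 genes in all. Both tested dehydrogenases of the Aldh1a family rose in db/db, Retsat and Rbp4 fell, and Rbp7 and Rdh10 did not pass. The test called 27.7% of all genes at a Benjamini-Hochberg adjusted p of 0.05, 15.8% higher and 11.9% lower, which is the background to the 2 members called higher and the 2 called lower. The median log2 fold change of the 6 tested members was −0.53 and that of all tested genes 0.01. Aldh1a3, Rara and Stra6 lay under the filter and are described from their counts.

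**Figure D1:**
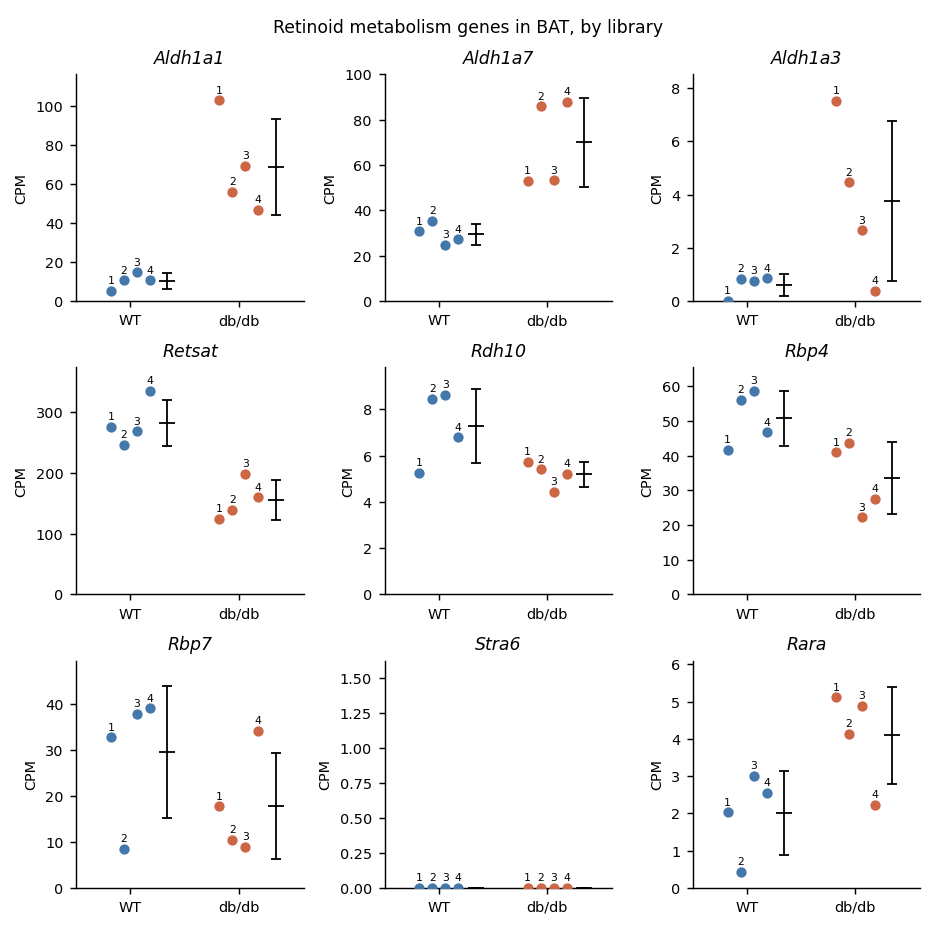
CPM (vertical axis, linear, from 0) of the 9 genes in each WT and db/db library, with the replicate number above each point and the mean ± SD (n = 4) as a bar to the right. Aldh1a1 and Aldh1a7 lie higher and Retsat lower in all 4 db/db libraries than in any WT library, and Stra6 is at 0 throughout.

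Aldh1a1 (ENSMUSG00000053279), which oxidises retinaldehyde to retinoic acid, was measured at 5.26, 10.6, 14.7 and 10.6 CPM in WT libraries 1 to 4 and at 102.9, 56.0, 69.1 and 46.9 CPM in db/db libraries 1 to 4. The lowest db/db library stood above the highest WT library by a wide margin, and db/db 1 was the highest. The means were 10.3 ± 3.85 and 68.7 ± 24.5 CPM (SD, n = 4 each), a 6.66-fold rise (log2 fold change 2.73 ± 0.28 SE, adjusted p 1.66e-06 in edgeR). Without db/db 1, the library with the highest muscle, macrophage and fibroblast sums, the log2 fold change was 2.46 (edgeR adjusted p 6.34e-07). Adding a skeletal muscle score as a covariate gave 1.68 (adjusted p 0.006047), and the part of the other marker lists in the rise was not tested. C730002L08Rik, annotated across Aldh1a1 on the opposite strand, had 0 counts in every library, and Gm6684, also on that strand, was not analysed here.

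Aldh1a7 (ENSMUSG00000024747), a rodent paralog of Aldh1a1 in the same cluster, was measured at 30.8, 35.5, 24.8 and 27.2 CPM in WT libraries 1 to 4 and at 52.9, 85.9, 53.2 and 87.8 CPM in db/db libraries 1 to 4. Again every db/db library was above every WT library, but the highest were db/db 2 and 4, not db/db 1. The means were 29.5 ± 4.64 and 69.96 ± 19.5 CPM (SD, n = 4 each), a 2.37-fold rise (log2 fold change 1.25 ± 0.20 SE, adjusted p 0.000159 in edgeR). The Aldh1a1 and Aldh1a7 transcripts (2053 and 2066 bases in GENCODE M21) were 88.7% identical, so their counts could in part be exchanged. Of the 1979 stretches of 75 bases, the length of a read, in the Aldh1a1 transcript, 50 (2.53%) occurred unchanged in that of Aldh1a7, all within its first 907 bases. Summing the counts of both genes gave a log2 fold change of 1.80 (edgeR adjusted p 8.33e-08). These values do not address whether Aldh1a7 acts on retinaldehyde.

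The balance between the paralogs was compared within libraries, where library scaling cancels. For each library the count of Aldh1a1 was divided by that of Aldh1a7. The ratio was 0.171, 0.298, 0.591 and 0.391 in WT libraries 1 to 4 and 1.94, 0.652, 1.30 and 0.534 in db/db libraries 1 to 4. WT 3 lay above db/db 4, so the genotypes overlapped, and Aldh1a1 counts exceeded those of Aldh1a7 in db/db 1 and 3. On the log2 scale, with 0.5 added to each count, WT libraries averaged −1.58 ± 0.73 and db/db libraries −0.05 ± 0.86 (SD, n = 4 each). The difference of 1.53 did not pass an exact two-sided permutation test (p = 0.0571, where the smallest possible is 0.0286), so a larger rise of Aldh1a1 than of Aldh1a7 was not shown beyond the spread between libraries.

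**Figure D2:**
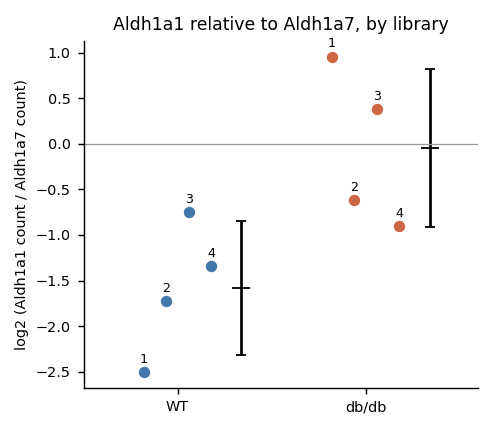
Log2 of the Aldh1a1 count over the Aldh1a7 count (vertical axis, 0.5 added to each count) in each WT and db/db library, numbered by replicate, with the mean ± SD (n = 4). The db/db libraries spread from −0.90 to 0.96, and WT 3 at −0.75 lies above db/db 4.

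Aldh1a3 (ENSMUSG00000015134, chromosome 7, 66390890 to 66427517), the third enzyme of the family in the list, had 0, 2, 2 and 2 counts in WT libraries 1 to 4 and 25, 14, 6 and 1 in db/db libraries 1 to 4. Every WT library was under the floor of 3 counts, while 3 of the 4 db/db libraries were above it and db/db 4 was not. The pooled counts of 6 and 46 gave a db/db to WT ratio of 6.62 after scaling for library size, with a 95% interval of 2.82 to 19.0 that covers counting error only. The difference in mean log2 CPM, with a prior count of 2, was 1.46 and did not pass an exact two-sided permutation test over libraries (p = 0.114). Without db/db 1, which held 25 of the 46 db/db counts, the difference was 1.06 (exact permutation p = 0.200). Of the 8 fits that leave out a library, only that without db/db 4 passed (difference 2.02, exact permutation p = 0.0286), and the other 7 gave p between 0.114 and 0.200. The edgeR test on every gene with at least 1 count called the gene (log2 fold change 2.51, adjusted p 0.007742). That fit gave Aldh1a1 an adjusted p of 1.296e-33, against 1.663e-06 in edgeR on the filtered genes, and Cd36 0.02338 against 0.01083. Whether it accounts for each gene's spread between libraries was not tested, so its calls are given as values only. The level of Aldh1a3 was highest in db/db 1, as was that of Aldh1a1.

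Retsat (ENSMUSG00000056666, chromosome 6, 72598475 to 72608425), which saturates retinol to dihydroretinol, was measured at 276.0, 246.9, 268.7 and 335.8 CPM in WT libraries 1 to 4 and at 123.9, 139.3, 199.0 and 160.0 CPM in db/db libraries 1 to 4. All 4 db/db libraries were below all 4 WT libraries, with db/db 1 the lowest. The means were 281.8 ± 38.0 and 155.6 ± 32.5 CPM (SD, n = 4 each), a fall of 44.9% (log2 fold change −0.86 ± 0.16 SE, adjusted p 0.000459 in edgeR). Adding the muscle score as a covariate gave a log2 fold change of −0.87 and an adjusted p of 0.05793. Gm45053 lies opposite Retsat, so part of its counts is uncertain.

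Rdh10 (ENSMUSG00000025921, chromosome 1, 16105774 to 16133734), which catalyses the first oxidation of retinol, was measured at 5.26, 8.44, 8.64 and 6.79 CPM in WT libraries 1 to 4 and at 5.72, 5.41, 4.43 and 5.21 CPM in db/db libraries 1 to 4. WT 2, 3 and 4 were above all db/db libraries, and WT 1 lay among the latter. The log2 fold change was −0.48 (SE 0.33, edgeR adjusted p 0.305), so that a difference was not shown beyond the spread between libraries.

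Rbp4 (ENSMUSG00000024990, chromosome 19, 38116629 to 38125281), the carrier of retinol in blood, was measured at 41.7, 56.1, 58.6 and 46.7 CPM in WT libraries 1 to 4 and at 40.9, 43.6, 22.2 and 27.5 CPM in db/db libraries 1 to 4. The genotypes overlapped, since db/db 2 was above WT 1, and db/db 3 and 4 were the lowest. The means were 50.8 ± 7.95 and 33.5 ± 10.3 CPM (SD, n = 4 each), with a log2 fold change of −0.58 (SE 0.21, edgeR adjusted p 0.0425). This call was near the threshold and was lost without WT 2, WT 3, WT 4, db/db 3 or db/db 4 (adjusted p 0.0944, 0.09755, 0.05562, 0.1193 and 0.1063), and with scaling by library totals (0.05515), a minimum of 10 counts in every library (0.06433) or the muscle covariate (0.2379). The log2 fold change itself was −0.60 with library totals, −0.64 without WT 4 and −0.80 with the muscle covariate, and −0.44 at its smallest, without db/db 3.

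Rbp7 (ENSMUSG00000028996, chromosome 4, 149449687 to 149454978), a cellular retinol-binding protein, was measured at 32.8, 8.44, 38.0 and 39.1 CPM in WT libraries 1 to 4 and at 17.7, 10.5, 8.87 and 34.2 CPM in db/db libraries 1 to 4. WT 2 was the lowest of all libraries and db/db 4 lay among the other WT libraries, so the genotypes overlapped widely. The log2 fold change was −0.73 (SE 0.40, edgeR adjusted p 0.197). The gene was called without WT 2 (−1.04, adjusted p 0.03353), without db/db 4 (−1.24, adjusted p 0.02582) and when every gene with at least 1 count was tested (−0.77, adjusted p 0.004729). The last of these fits has the limit given for Aldh1a3. Stra6 (ENSMUSG00000032327, chromosome 9, 58063788 to 58153996), the membrane receptor that takes retinol from Rbp4, had 0 counts in all 8 libraries, which allows a level of up to 0.9025 to 1.33 CPM depending on the library. Gm16131 overlaps Stra6 on the same strand and Ccdc33 on the opposite one, both at 0 counts in every library, and reads left out as ambiguous between them would raise this limit.

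Rara (ENSMUSG00000037992, chromosome 11, 98927818 to 98974942), the alpha form of the retinoic acid receptor, had 5, 1, 8 and 6 counts in WT libraries 1 to 4 and 17, 13, 11 and 6 in db/db libraries 1 to 4. db/db 1, 2 and 3 were above all WT libraries and db/db 4 lay among the latter. Pooled counts of 20 and 47 gave a scaled ratio of 2.03, with a 95% interval of 1.18 to 3.62 for counting error only. The difference of 0.89 in mean log2 CPM did not pass the exact two-sided permutation test (p = 0.0857), nor did the gene in edgeR on every gene with at least 1 count (adjusted p 0.2694). Without WT 2, which had 1 count, the difference was 0.53 (exact permutation p = 0.143), the smallest of the fits that leave out a library.

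Beyond the 9 genes, 61 further genes of retinoid metabolism and signalling were examined by role, of which 33 passed the filter. The test called 6 of them higher and 10 lower in db/db, against the background of 15.8% and 11.9% of all genes, and 17 did not pass. Their median log2 fold change was 0.06. Among the 61 were 9 with 0 counts in every library, including Cyp26a1, Cyp26c1, Rbp2, Ttr and Rlbp1, and Lrat, the main enzyme that esterifies retinol, had 1 count in 1 library.

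**Figure D3:**
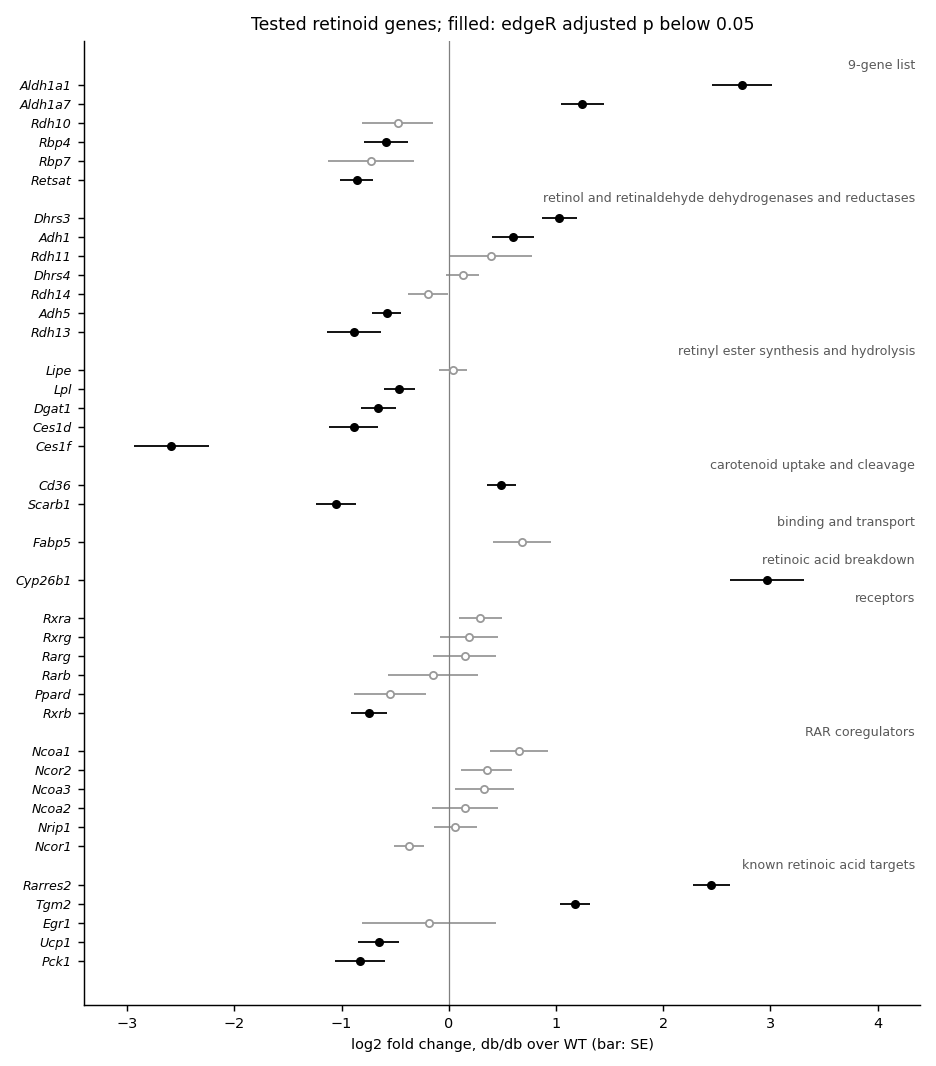
Log2 fold change of db/db over WT (horizontal axis) with its SE for the 6 tested members and the 33 other tested genes, grouped by role, where filled points passed an edgeR adjusted p of 0.05 over all genes. Cyp26b1, Aldh1a1 and Rarres2 lie farthest to the right and Ces1f farthest to the left, and no coregulator is filled.

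Among enzymes that move retinoids between alcohol and aldehyde, 2 of 7 tested rose and 2 fell, beside 15.8% and 11.9% of all tested genes. Dhrs3, which reduces retinaldehyde to retinol, was measured at 69.2, 63.7, 50.7 and 45.0 CPM in WT libraries 1 to 4 and at 142.3, 106.9, 99.3 and 117.9 CPM in db/db libraries 1 to 4. Every db/db library was above every WT library, a 2.04-fold rise (log2 fold change 1.03 ± 0.16 SE, adjusted p 0.000144 in edgeR). Adh1, an alcohol dehydrogenase that also uses retinol, rose less (log2 fold change 0.60 ± 0.20 SE, adjusted p 0.0291 in edgeR), with WT 2 above db/db 1 and 2, and its call was lost without WT 3, WT 4, db/db 3 or db/db 4 (adjusted p 0.07408 to 0.1147). Rdh13, a mitochondrial member of the retinol dehydrogenase family, fell from 18.2 ± 2.33 to 9.73 ± 2.76 CPM (SD, n = 4 each), with a log2 fold change of −0.88 (SE 0.25, edgeR adjusted p 0.0143). Adh5, best known as the formaldehyde dehydrogenase, fell from 85.7 ± 2.09 to 57.4 ± 6.48 CPM (SD, n = 4 each), at a log2 fold change of −0.58 ± 0.14 (SE) and an adjusted p of 0.00363 in edgeR, and in both of these genes the genotypes did not overlap. Non-overlap of the genotypes was found in 28.1% of all tested genes.

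Of 5 tested genes of retinyl ester synthesis and hydrolysis, 4 fell, beside 11.9% of all tested genes, and Lipe did not pass. Ces1f, a carboxylesterase, was measured at 19.8, 22.8, 31.9 and 23.3 CPM in WT libraries 1 to 4 and at 6.32, 1.91, 6.21 and 1.86 CPM in db/db libraries 1 to 4. It fell by 83.4% (log2 fold change −2.59 ± 0.35 SE, adjusted p 2.89e-05 in edgeR). Its counts in db/db were 21, 6, 14 and 5, so it passed the filter through WT, where it is high, and it was not tested with a minimum of 10 counts in every library. Ces1d, a carboxylesterase known to hydrolyse retinyl ester, fell from 390.3 ± 102 to 210.9 ± 79.5 CPM (SD, n = 4 each), at a log2 fold change of −0.89 ± 0.23 (SE) and an adjusted p of 0.00705 in edgeR, with db/db 2 above WT 1. Ces1d and Ces1f belong to a cluster of similar genes on chromosome 8, so the division of reads between them is uncertain. Dgat1, which can esterify retinol as well as diacylglycerol, fell from 186.0 ± 37.9 to 118.0 ± 18.9 CPM (SD, n = 4 each), at a log2 fold change of −0.66 ± 0.16 (SE) and an adjusted p of 0.00497 in edgeR. Lpl, lipoprotein lipase, was the fourth (log2 fold change −0.46, edgeR adjusted p 0.0232) and is named here after its value was seen. Its call was lost without WT 3, db/db 2 or db/db 4 (log2 fold change −0.39, −0.46 and −0.40, edgeR adjusted p 0.0693, 0.0509 and 0.0618). Lipe, the hormone-sensitive lipase that also cleaves retinyl ester, was at 925.3 ± 106 and 949.5 ± 87.1 CPM (SD, n = 4 each), at a log2 fold change of 0.04 ± 0.13 (SE) and an adjusted p of 0.868 in edgeR.

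The 2 tested genes of carotenoid uptake moved apart. Scarb1, a scavenger receptor that takes up carotenoids and lipoprotein lipid, was measured at 51.4, 38.8, 46.6 and 34.4 CPM in WT libraries 1 to 4 and at 17.4, 24.5, 19.5 and 21.2 CPM in db/db libraries 1 to 4. It fell by 51.7% with no overlap (log2 fold change −1.05 ± 0.19 SE, adjusted p 0.000418 in edgeR). Cd36, a fatty acid and scavenger receptor that macrophages also express, rose from 402.7 ± 30.6 to 565.2 ± 79.6 CPM (SD, n = 4 each), at a log2 fold change of 0.49 ± 0.13 (SE) and an adjusted p of 0.0108 in edgeR. Its call was lost without WT 2 (adjusted p 0.05058) and with the muscle covariate (log2 fold change 0.39, adjusted p 0.4305).

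The retinoic acid hydroxylase Cyp26b1 rose in db/db. It was measured at 2.83, 3.38, 3.01 and 3.40 CPM in WT libraries 1 to 4 and at 40.3, 14.6, 22.2 and 22.3 CPM in db/db libraries 1 to 4. All 4 db/db libraries were above the WT libraries and db/db 1 was the highest, as for Aldh1a1. The rise was 7.83-fold (log2 fold change 2.97 ± 0.34 SE, adjusted p 6.10e-06 in edgeR), and without db/db 1 the log2 fold change was 2.61 (edgeR adjusted p 5.78e-06). With the muscle covariate it was 2.004 (edgeR adjusted p 0.01434). Cyp26b1 had only 7 or 8 counts in each WT library, so it passed the filter through db/db, where it is high, and it was not tested with a minimum of 10 counts in every library. Cyp26a1, whose DR5 is printed above, had 0 counts in every library. Rara, Scarb1, Ces1d and Rdh13 are each overlapped on the same strand by another annotated gene (Gm22061, Gm42633, Gm45909 and Gm24605), so that their counts are uncertain to that extent.

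Of the receptors, Rxrb fell from 46.7 ± 6.18 to 27.9 ± 3.13 CPM (SD, n = 4 each), at a log2 fold change of −0.74 ± 0.17 (SE) and an adjusted p of 0.00274 in edgeR, and the other 5 tested did not pass. Rarb, which is both a receptor and a known retinoic acid target through its DR5, was measured at 9.31, 6.33, 5.26 and 4.24 CPM in WT libraries 1 to 4 and at 2.71, 8.91, 7.54 and 3.72 CPM in db/db libraries 1 to 4. The genotypes were interleaved (log2 fold change −0.15 ± 0.42 SE, adjusted p 0.832 in edgeR). Top2b and Gm48162 are annotated across Rarb on the opposite strand and were not analysed here, so part of its counts is uncertain. Of the 6 coregulators tested, 0 passed in edgeR and 2, the corepressor Ncor1 and the coactivator Ncoa1, had an unadjusted p below the threshold of 0.05. The adjusted p of Ncor1 was 0.0523 in edgeR, 0.0314 in DESeq2 and 0.0396 in limma-voom, each of the latter calling 1 of the 6. With the replicate block edgeR called Ncoa1 (adjusted p 0.0282) and not Ncor1 (0.0606).

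In a list of 8 further genes known to respond to retinoic acid, which leaves Rarb with the receptors, 2 of 5 tested were higher and 2 lower. The shares over all tested genes were 15.8% and 11.9%. Rarres2, which encodes the adipokine chemerin, was measured at 53.8, 38.0, 62.0 and 41.2 CPM in WT libraries 1 to 4 and at 329.1, 271.7, 217.6 and 249.2 CPM in db/db libraries 1 to 4. It rose 5.47-fold with no overlap (log2 fold change 2.45 ± 0.18 SE, adjusted p 3.25e-08 in edgeR). Tgm2, a transglutaminase that macrophages also express, rose from 67.5 ± 5.82 to 152.5 ± 19.4 CPM (SD, n = 4 each), at a log2 fold change of 1.18 ± 0.14 (SE) and an adjusted p of 8.17e-06 in edgeR. Lrrc61 overlaps Rarres2 and Rprd1b overlaps Tgm2 on opposite strands, and with no statement on strand their reads could be mixed. Lrrc61 had 36 to 72 counts per library beside 90 to 165 of Rarres2 in WT and 491 to 1094 in db/db, and Rprd1b had 23 to 57 beside 159 to 171 of Tgm2 in WT and 382 to 515 in db/db. Ucp1, the uncoupling protein of brown fat, fell from 2248 ± 387 to 1429 ± 457 CPM (SD, n = 4 each), at a log2 fold change of −0.65 ± 0.19 (SE) and an adjusted p of 0.0176 in edgeR, a call lost without WT 4 or db/db 3 (adjusted p 0.07068 and 0.06116). Pck1, a gluconeogenic and glyceroneogenic enzyme, had a log2 fold change of −0.83 ± 0.23 (SE) and an adjusted p of 0.0132 in edgeR. Ucp1 is itself on the list of brown adipocyte markers. Of these, 5 of 7 tested were lower in db/db, beside 11.9% of all tested genes (summed level 8898 to 10561 CPM in WT and 3726 to 6773 CPM in db/db).

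**Figure D4:**
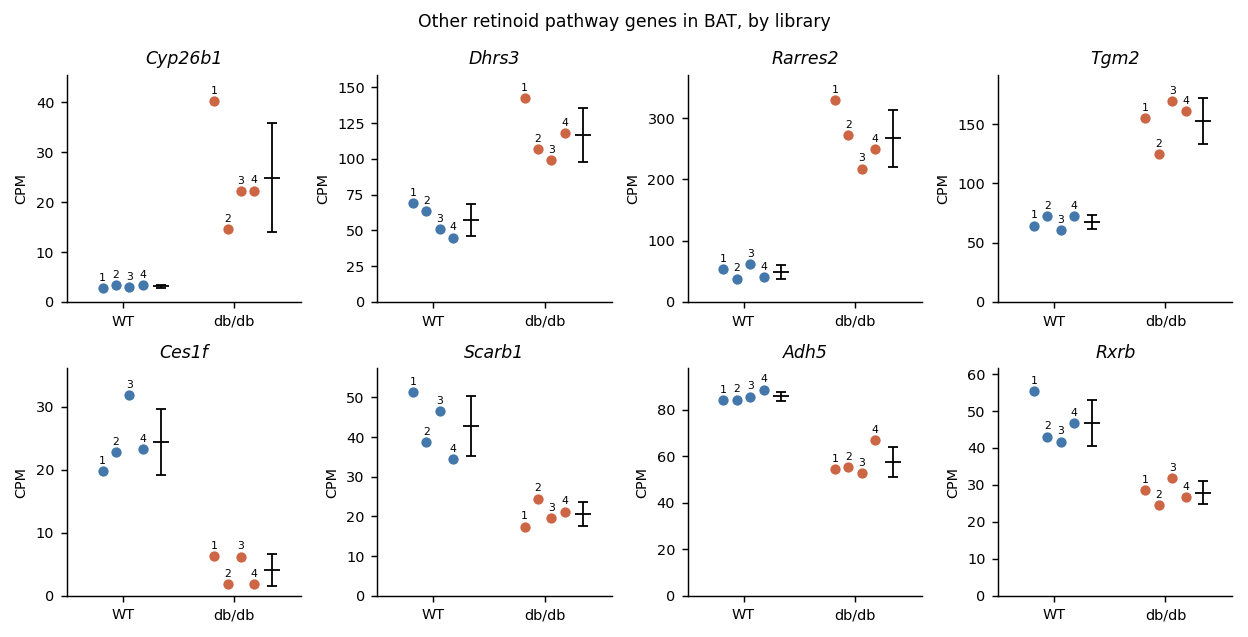
CPM (vertical axis, linear, from 0) of 8 other retinoid pathway genes in each WT and db/db library, numbered by replicate, with the mean ± SD (n = 4). Cyp26b1, Dhrs3, Rarres2 and Tgm2 are higher and Ces1f, Scarb1, Adh5 and Rxrb lower in all 4 db/db libraries than in any WT library. The 8 were picked from the called genes, and in 28.1% of all tested genes the genotypes do not overlap. Adh1, Ces1d, Ucp1 and Pck1 were also called, overlap between genotypes and are not shown.

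When the muscle score was a covariate, fewer calls were made, but the log2 fold changes did not all shrink. Of all 9264 tested genes, 556 passed in this fit, 408 higher and 148 lower in db/db. In edgeR 2 members (Aldh1a1 and Aldh1a7, both higher) and 5 of the other 33 genes passed, namely Cyp26b1, Rarres2, Dhrs3 and Tgm2, which were higher, and Ces1f, which was lower. The log2 fold change of Aldh1a7 went from 1.25 to 1.78 and that of Ces1f from −2.59 to −3.55, while those of Aldh1a1 and Cyp26b1 became smaller, as given above, and that of Rarres2 was 2.42. Among the genes that lost their call, Rdh13 was at −1.16, Adh1 at 0.9997, Pck1 at −0.88, Ces1d at −0.80 and Rxrb at −0.73, with adjusted p from 0.07179 to 0.2742. Scarb1, Adh5, Dgat1, Ucp1 and Cd36 also lost their call and came closer to 0, at −0.52, −0.46, −0.38, −0.36 and 0.39, with adjusted p of 0.4172, 0.3399, 0.4992, 0.5822 and 0.4305. Lpl lost its call at −0.67 (edgeR adjusted p 0.1755). The score was higher in every db/db than in every WT library, and score and genotype can be told apart only within genotypes.

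The genes whose levels followed Aldh1a1 most closely were sought among 8683 tested genes with a mean of at least 5 CPM, by the mean absolute difference in log2 CPM from the WT mean over the 8 libraries. They were Ptafr and Gas6 (both 0.23), Ptk2b (0.26), Eepd1 (0.28) and Olfm1 (0.29), where the median gene stood at 1.56. Ptafr was at 0.823 ± 0.695 CPM in WT, which is under the floor, and at 9.42 ± 3.40 CPM in db/db (SD, n = 4 each), so it met the minimum through db/db alone and its WT profile is within counting error. Olfm1, at 3.51 ± 1.23 CPM in WT and 29.2 ± 6.60 CPM in db/db, also met the minimum only through db/db. Ptafr encodes the receptor for platelet-activating factor, Gas6 a ligand of the TAM receptor kinases, Ptk2b a focal adhesion family kinase and Olfm1 a secreted olfactomedin protein. Gas6 went from 7.74 ± 3.28 CPM in WT to 40.3 ± 5.12 CPM in db/db, Ptk2b from 7.11 ± 2.22 to 39.2 ± 6.82 CPM and Eepd1 from 13.8 ± 2.41 to 77.6 ± 8.17 CPM (SD, n = 4 each). These genes were chosen for their likeness to Aldh1a1, so their difference between genotypes is given as a description.

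**Figure D5:**
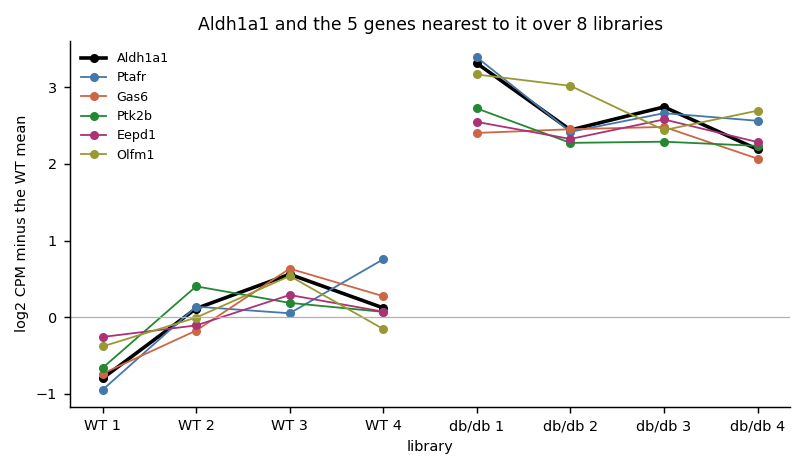
Log2 CPM minus the WT mean (vertical axis) of Aldh1a1 (thick black line) and the 5 genes nearest to it, in each of the 8 libraries (horizontal axis). All 6 lie within 1 of 0 in WT and between 2.07 and 3.39 in db/db.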

How the data were processed

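RNA of BAT from 4 WT and 4 db/db mice was sequenced single-end over 75 cycles. Per the study's methods, a commercial pipeline trimmed reads with bbduk, aligned them to mm10 with STAR and counted them per gene with HTSeq-count, whereas the submitters' processing notes name Trimmomatic, HISAT2 and DESeq2 on GRCm38/mm10. Strand, molecular identifiers and annotation release are not given in the sources used here, and the counts may contain PCR duplicates. The authors deposited raw counts and normalized values on a log2 scale. The latter were the counts divided by the DESeq2 size factor, plus 1, in every library. The sample sheet was not used here.

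Of 31053 genes, 31011 matched GENCODE M21 by identifier. Genotypes came from the sample titles. Counts were filtered with filterByExpr (minimum count 10, minimum total 15), scaled by TMM and tested in edgeR 4.0.16 under R 4.3.3 (quasi-likelihood F test, genotype alone in the design), with Benjamini-Hochberg adjustment over all 9264 tested genes at 0.05. SEs were derived from the F statistic. The study used DESeq2, run here as an alternative (1.42.0), as were limma-voom and limma-trend (3.58.1), other scalings and filters, a skeletal muscle covariate, a replicate block and leaving out each library. The fits were tested on simulated data. Ratios and genes under the filter were compared by exact two-sided permutation of the libraries. Total counts of 2374079 to 3240074 limit precision, and intervals and floors cover counting error only.

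The members, the pathway and marker lists and the tests were chosen with earlier results of these data known. Named genes were all 9 members, at most 15 called pathway genes with the largest change, and the 5 genes nearest to Aldh1a1. Lpl, Lipe, Rarb, Ncor1, Ncoa1, the markers and the genes at or near 0 counts are named outside this rule, after their values were seen. Sequences were read from RefSeq promoter windows (GRCm38.p6), and transcripts were aligned with Biopython 1.88.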

Additional observations from a re-analysis of the deposited data

Results flagged for a closer look

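In a test of each group of 4 for a single library far from the rest, 58 groups were examined over the members, the named pathway genes, the Aldh1a1 to Aldh1a7 ratio, the mitochondrially encoded share and the sums of 3 marker lists, and 2 stood out, where chance gives about 1 in 20. For Aldh1a3, WT 1 was at 0 CPM and the other WT libraries at 0.7515 to 0.8489 CPM, a difference of 2 counts that lies under the floor of 3 counts. For the mitochondrially encoded share of counts, db/db 1 was at 30.68% and the other db/db libraries at 36.76% to 37.58%. The same library was the highest in Aldh1a1, Aldh1a3 and Cyp26b1. Without it the edgeR log2 fold change was 2.46 for Aldh1a1 and 2.61 for Cyp26b1. For Aldh1a3 the difference in mean log2 CPM, a measure not comparable with these, was 1.06.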

How the results depend on the processing

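When the skeletal muscle score was added as a covariate, the number of genes differing fell from 2568 to 556, that of members from 4 to 2 and that of other pathway genes from 16 to 5. Under the other scalings, filters and tools these counts stayed within 1.5 times (2018 to 3170 genes). Leaving out each library in turn gave 2236 to 2483 genes, 3 to 4 members and 14 to 17 pathway genes. The ratio of Aldh1a1 to Aldh1a7 differed by 1.20 to 1.82 on the log2 scale when a library was left out (exact permutation p 0.0571 to 0.143) and by 1.47 to 1.55 with other pseudocounts or the authors' normalized values. Aldh1a3 differed by 1.06 to 2.02 when a library was left out, passing without db/db 4, and by 2.51 in edgeR on all genes with at least 1 count. Rara differed by 0.53 to 1.11 when a library was left out. For the 21 tested genes named by the rule, 206 of 209 values under other scalings, filters, tools or the block and 154 of 168 with a library left out kept their direction and their side of the threshold, against 9 of 21 with the muscle covariate, and 0 changed direction. The calls lost or gained by a library are named in the report, and the cause was not tested.

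Replicate numbers 1 to 4 occur in both genotypes, but deviations of same-numbered libraries correlated at −0.08 to 0.05 over all tested genes. No pairing by number was seen in this measure, which cannot exclude it for single genes. With the replicate block, 2557 genes, 4 members and 17 other pathway genes were called, and the ratio differed by 1.53 with an exact p of 0.125 within pairs, the smallest that 4 pairs allow. A depth of 2374079 to 3240074 counts limits the lowly expressed members Aldh1a3, Rara, Rdh10 and Stra6.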
